A study of Macaca mulatta with 10 samples.

Results

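The genes described here encode NF-kB subunits and proteins that hold NF-kB in check: NFKBIA, NFKBIE, NFKBIZ, TNFAIP3, BIRC3, BCL3, RELB, NFKB1, NFKB2 and TNIP1. They were chosen by name. Every probe set whose platform annotation gives 1 symbol, and that symbol 1 of these 10, was taken. This gave 22 of 52865 probe sets on the array, for 10 of the 14133 genes it names, from 1 each for NFKBIA, NFKBIE, RELB and TNIP1 to 5 for TNFAIP3. Liver RNA of 10 rhesus macaques (Macaca mulatta) was measured on a 1-colour oligonucleotide array, with 1 array per animal. The control group held 5 living donors, 3 females and 2 males of 4 to 20 years, kept under anaesthesia and mechanical ventilation for 1 h before organ recovery. The brain-dead group held 5 donors, 2 females and 3 males of 7 to 18 years, the age of 1 of them not being given. In these animals an epidural balloon catheter was inflated and blood pressure was supported with Ringer's solution plus vasopressin and/or dopamine. The sample labels give 6 h of brain death, whereas the design text of the series gives 5 h. All livers were flushed with preservation solution before removal. Time under ventilation and vasoactive drugs cannot be told apart from brain death in this design.

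NF-kB is a family of dimeric transcription factors that drive inflammatory and survival genes. In resting cells the dimers are held in the cytoplasm by IkB proteins. Signals from receptors for TNF, IL-1 and bacterial products activate the IkB kinase, the IkB protein is degraded, and the freed dimer enters the nucleus. Many of its target genes encode its own subunits and inhibitors, which makes the pathway a feedback loop. In liver this loop operates in hepatocytes as well as in macrophages, endothelial cells and infiltrating leukocytes.

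Signals are given as deposited, on a linear scale, and changes are differences in mean log2 signal, brain-dead minus control. Of 26653 probe sets tested with limma, 2.72% were higher and 3.39% lower in the brain-dead animals at a Benjamini-Hochberg adjusted p under 0.05. The array medians lay between 175 and 227. Of 10 hepatocyte markers, 6 were measured and bright, with summed signals from 579810 to 706170 in controls and from 503810 to 558560 in brain-dead animals. None of the 6 passed the test on its brightest probe set. Of the other SERPINA1 probe sets, with changes from -1.15 to 1.17, 1 was called. Of 12 neutrophil markers 6 were measured, and their summed signal was 1019 to 6251 in controls against 8477 to 56938 in brain-dead animals. S100A8 and S100A9, the 2 of the 6 that passed, made up most of the difference. The other 4 missed the threshold, with changes of 1.69 for MMP9, 0.76 for CSF3R, -0.26 for FPR1 and -0.38 for ELANE on the log2 scale, MPO, MMP8 and S100A12 lay below the filter, and FCGR3B, CXCR1 and CXCR2 were not analysed here. Of 9 T and NK cell markers 4 were measured, none passed, and their summed signal was 8820 to 11897 in controls and 12010 to 18063 in brain-dead animals. KLRD1 made up most of this sum, with a mean of 7847 in controls and 13002 in brain-dead animals on its brightest probe set. Another KLRD1 probe set had a change of -0.27. The changes of CD8A, NKG7 and GZMB were -0.25, 0.19 and 0.48. Summed signals of 9 of 10 Kupffer cell and 8 of 9 endothelial markers overlapped between the groups (71693 to 125240 against 53360 to 115520, and 21160 to 38367 against 18489 to 30792), as did those of the B cell, cholangiocyte and stellate cell markers measured. On the brightest probe sets 8 of the 9 Kupffer cell and 7 of the 8 endothelial markers had changes below 0, none of them called. Another C1QA probe set, of the Kupffer cell list, was called with a change of -1.31. The part of these cells in the results below was not tested. Ratios of 3' to 5' control probe sets overlapped, from 1.24 to 1.41 in controls and from 1.15 to 1.38 in brain-dead animals for ACTB. Since whole liver was measured, more cells of a type and more RNA per cell cannot be told apart.

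Transcripts of the subunits RELB, NFKB1 and NFKB2, of the nuclear IkB protein BCL3 and of the ubiquitin ligases or editors BIRC3 and TNFAIP3 rose in brain-dead livers on at least 1 probe set each, whereas those of the IkB proteins NFKBIA, NFKBIE and NFKBIZ and of TNIP1 did not pass the test. Of the 22 probe sets 21 passed the filter on low signal, 17 of them with a signal above the array median on all 10 arrays. Of these 21, 8 rose, 0 fell and 13 missed the threshold (limma, Benjamini-Hochberg adjusted p over all 26653 probe sets). Of the 17, 7 rose. The remaining probe set that rose, MmugDNA.6382.1.S1_at of BIRC3, met the filter only with the brighter group counted. The 8 came from 6 genes, BIRC3 and NFKB1 with 2 probe sets each, and TNFAIP3, BCL3, RELB and NFKB2 with 1. Rises thus made up 38.1% of the tested probe sets, beside 2.72% of all tested. In 6 of the 21 every brain-dead animal lay above every control, beside 3.33% of all tested, and in none did every brain-dead animal lie below every control, beside 3.6%. The median change was 0.89 over the 21 and 0.89 over all 22, against -0.003 for all probe sets tested. Represented by its brightest tested probe set, each gene gave 1 value, and 4 of 10 rose (BIRC3, BCL3, RELB and NFKB1), beside 2.9% of 9835 genes. TNFAIP3 and NFKB2 were not called on their brightest probe sets, with changes of -0.17 and -0.32. The count of 8 was sensitive to single animals. Leaving out control animal 1, 2 or 4 gave 3, 5 and 5, and leaving out brain-dead animal 1, 2, 3 or 5 gave 5, 5, 4 and 3.

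**Figure D1:**
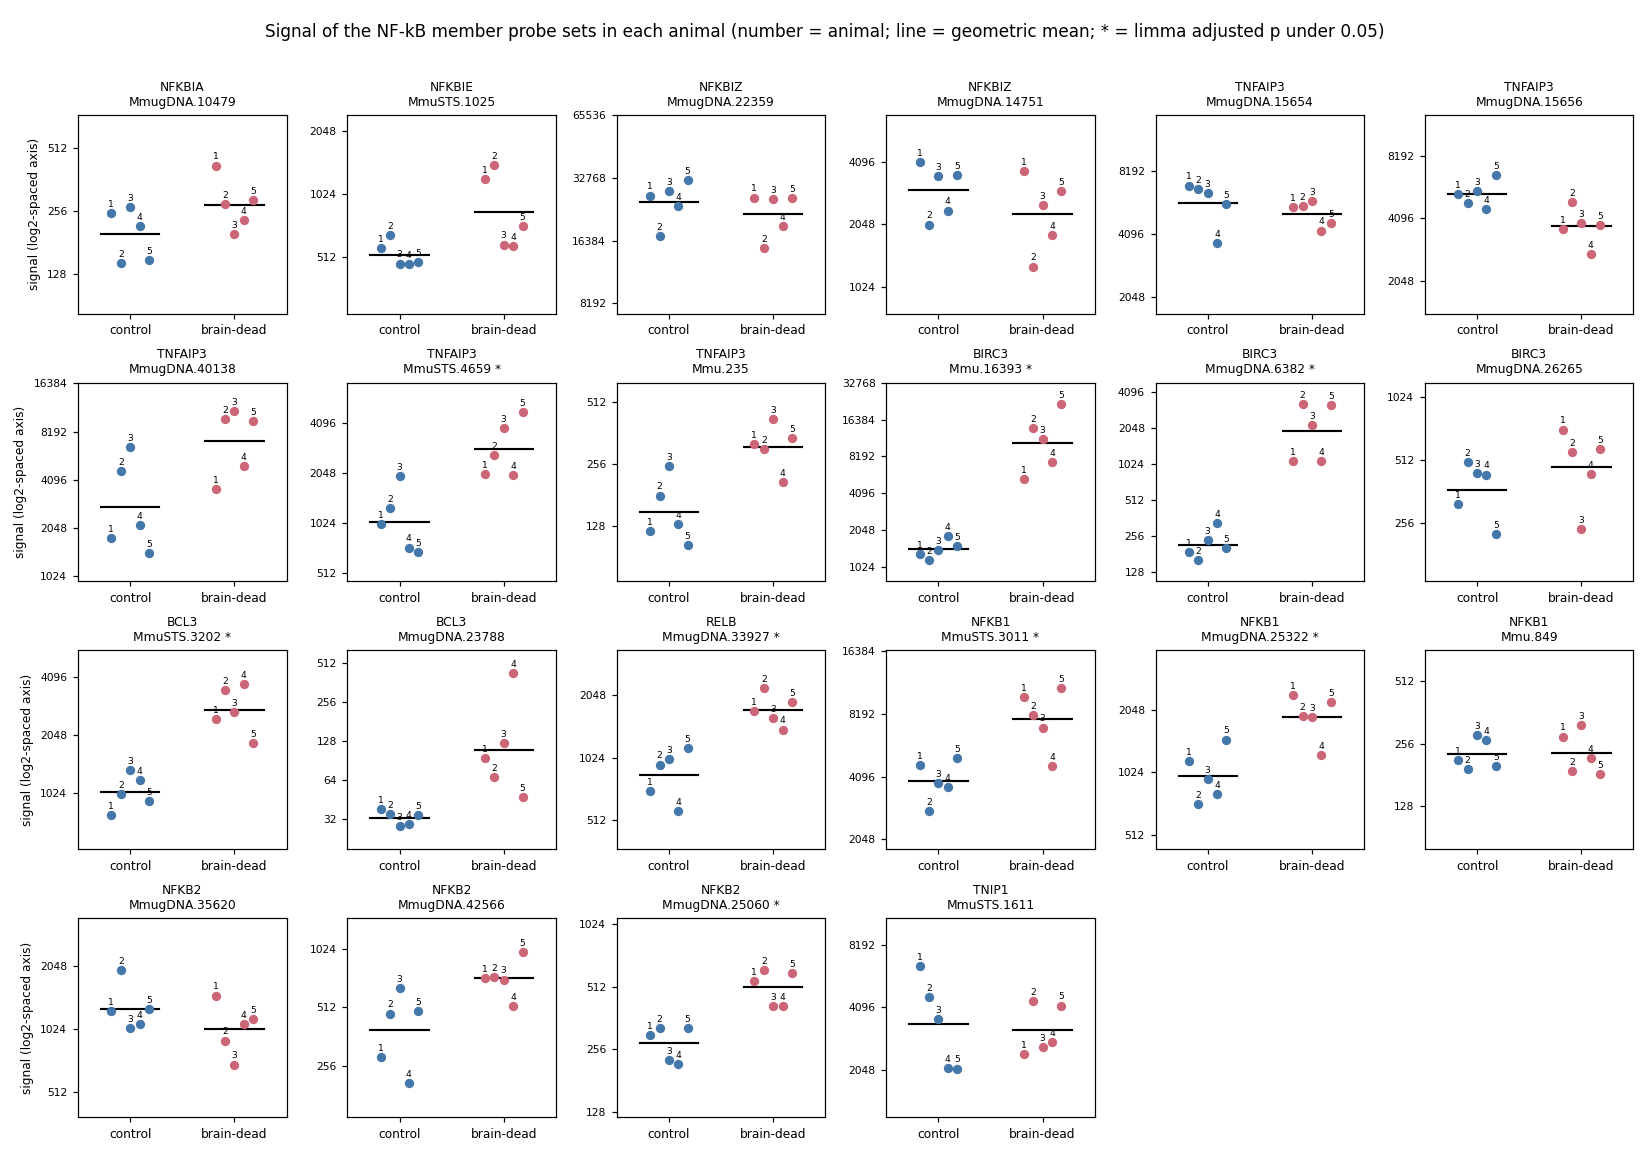
Deposited signal of each of the 22 probe sets in every animal, controls in blue and brain-dead animals in red, on a log2-spaced axis that differs between panels; numbers name the animals, lines are geometric means of 5 animals, and an asterisk marks an adjusted p under 0.05. The groups are apart for both rising BIRC3 probe sets, both BCL3 probe sets, RELB, 1 TNFAIP3 probe set and 1 NFKB2 probe set, and overlap in the other panels.

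**Figure D2:**
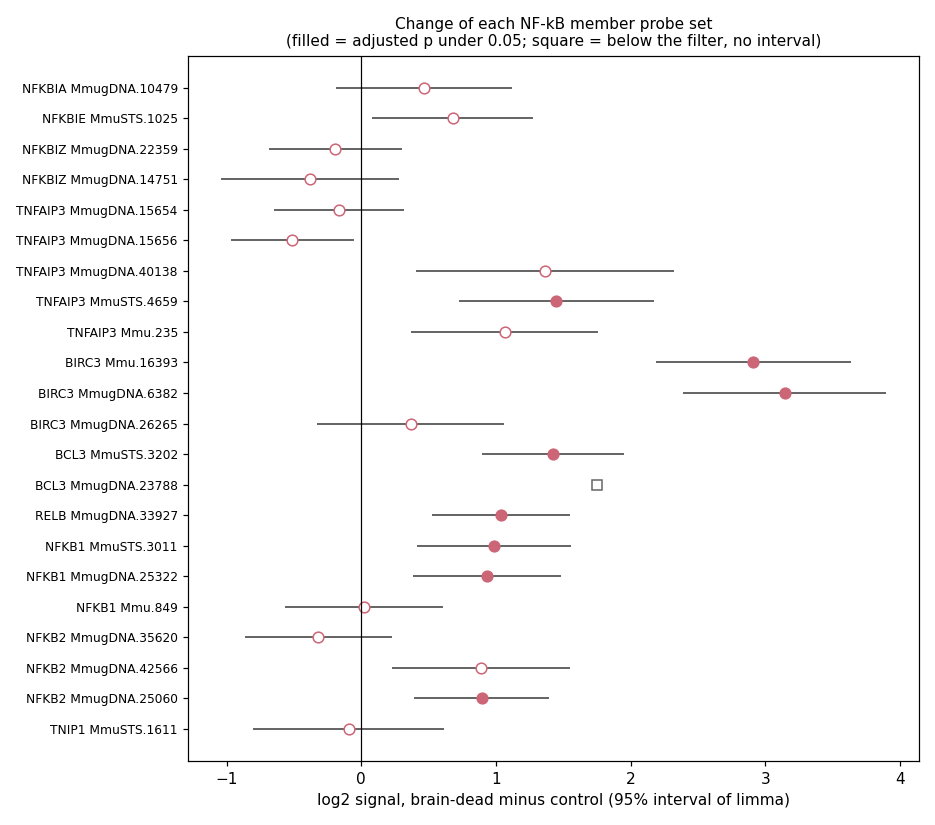
Change in mean log2 signal, brain-dead minus control, of each probe set (points) with the 95% interval from limma (lines); filled points have an adjusted p under 0.05 and the square is the BCL3 probe set below the filter. The changes run from -0.51 for a TNFAIP3 probe set to 3.14 for a BIRC3 probe set.

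RELB, the subunit that pairs with p52 in the noncanonical branch, had signals of 709, 947, 1008, 564 and 1141 in control animals 1 to 5. The brain-dead animals had 1704, 2209, 1588, 1395 and 1894. Every brain-dead animal lay above the highest control. The rise was 1.04 ± 0.23 on the log2 scale (SE, n = 5 animals a group), or 2.05-fold (limma, Benjamini-Hochberg adjusted p = 0.0236). In the two-sided exact permutation test over animals p was 0.00794, the smallest that 5 animals against 5 allow. The call ended without control animal 1 or brain-dead animal 5 (limma, Benjamini-Hochberg adjusted p = 0.0543 and 0.0584), and its adjusted p ranged from 0.0129 to 0.0795 over all alternatives.

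NFKB1 encodes p105, an IkB-like precursor that is cut to the subunit p50. Its brightest probe set (MmuSTS.3011.1.S1_at) had control signals of 4658, 2790, 3830, 3652 and 5051, and brain-dead signals of 9873, 8054, 7049, 4586 and 10917. Brain-dead animal 4 lay within the control range and the other 4 lay above it. The rise was 0.99 ± 0.26 (SE, limma, Benjamini-Hochberg adjusted p = 0.0430). A second NFKB1 probe set (MmugDNA.25322.1.S1_at) gave the same picture, with control signals of 1158, 720, 952, 809 and 1471 against 2403, 1915, 1888, 1239 and 2230. Again brain-dead animal 4 alone lay within the control range, and the rise was 0.93 ± 0.25 (SE, limma, Benjamini-Hochberg adjusted p = 0.0454). The third, the dimmest, which lay near the array medians at 182 to 314 in all animals, had a change of 0.02 with a 95% interval from -0.56 to 0.60. Both NFKB1 calls were close to the threshold. Each ended when any 1 animal other than control animal 5 or brain-dead animal 4 was left out. The adjusted p (limma, Benjamini-Hochberg) then lay between 0.0562 and 0.108 for the brightest and between 0.0638 and 0.114 for the second, the upper bounds being those with control animal 2 left out. Over all alternatives the lowest adjusted p was 0.0187 and 0.0195 and the highest 0.108 and 0.116.

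NFKB2 encodes p100, which acts as an inhibitor until it is cut to p52, the partner of RELB. One of its probe sets (MmugDNA.25060.1.S1_at) had control signals of 298, 324, 227, 217 and 323 and brain-dead signals of 547, 612, 415, 411 and 598, without overlap. It rose by 0.89 ± 0.23 (SE, limma, Benjamini-Hochberg adjusted p = 0.0381), and the exact permutation p was 0.00794 (two-sided). Another (MmugDNA.42566.1.S1_at) had a change of similar size, 0.89 ± 0.31, that missed the threshold (limma, Benjamini-Hochberg adjusted p = 0.0999). Its control signals spread from 210 to 647, its brain-dead signals from 522 to 986, and the groups overlapped through brain-dead animal 4. The brightest NFKB2 probe set (MmugDNA.35620.1.S1_at) had a change of -0.32 with a 95% interval from -0.86 to 0.22. Its signals were 1030 to 1960 in controls and 691 to 1482 in brain-dead animals. The call of MmugDNA.25060.1.S1_at ended without any 1 animal except control animal 5, with limma's Benjamini-Hochberg adjusted p from 0.0519 (without control animal 4) to 0.0962 (without brain-dead animal 5), and its range over all alternatives was 0.0247 to 0.0962.

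BCL3, a nuclear IkB protein that binds p50 and p52 homodimers, was higher in every brain-dead animal on both of its probe sets. On the brighter (MmuSTS.3202.1.S1_at) the controls had 780, 1011, 1343, 1192 and 926 and the brain-dead animals 2482, 3506, 2676, 3754 and 1859. The rise of 1.42 ± 0.24 (SE), or 2.68-fold, passed (limma, Benjamini-Hochberg adjusted p = 0.00741), and it passed under all 23 alternatives (0.00402 to 0.0295). The dimmer BCL3 probe set (MmugDNA.23788.1.S1_at) lay above its array's median on 1 array and was not tested in the main fit. Its control signals were 37.9, 34.5, 27.9, 29.2 and 34.2, and its brain-dead signals 94.0, 67.3, 122, 429 and 47.1. Brain-dead animal 4 stood highest on both BCL3 probe sets and brain-dead animal 5 lowest among the brain-dead. The change of the dimmer one was 1.75 on the log2 scale, or 0.93 with a pseudocount of 64, and the two-sided exact permutation p was 0.00794. Without a filter its adjusted p was 0.133 (limma, Benjamini-Hochberg).

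NFKBIZ, the nuclear IkB protein needed for a secondary set of NF-kB targets, did not share in the rise. Its bright probe set (MmugDNA.22359.1.S1_at) had control signals of 26972, 17192, 28408, 24030 and 32005 and brain-dead signals of 26380, 15023, 25831, 19197 and 26282. No brain-dead animal exceeded the highest control. The change was -0.19 with a 95% interval from -0.68 to 0.29, which leaves out a doubling (limma, Benjamini-Hochberg adjusted p = 0.649). The second NFKBIZ probe set (MmugDNA.14751.1.S1_at), at 2040 to 4074 in controls and 1283 to 3687 in brain-dead animals, had a change of -0.38 with an interval from -1.04 to 0.27.

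BIRC3 encodes cIAP2, a ubiquitin ligase that carries signals from TNF receptors to NF-kB and restrains NIK, the kinase of the noncanonical branch. It had the largest change of the 10 genes. Its brightest probe set had control signals of 1296, 1161, 1400, 1808 and 1499 and brain-dead signals of 5329, 13976, 11428, 7310 and 22007. The lowest brain-dead signal, in animal 1, was still above the highest control, in animal 4. The rise was 7.52-fold (limma, Benjamini-Hochberg adjusted p = 0.00158). A second BIRC3 probe set (MmugDNA.6382.1.S1_at), above the array median in 3 controls and 5 brain-dead animals, had 190, 161, 237, 326 and 204 in controls and 1076, 3255, 2167, 1077 and 3174 in brain-dead animals, a rise of 8.84-fold (limma, Benjamini-Hochberg adjusted p = 0.00144). MmugDNA.6382.1.S1_at thus met the filter only with the brighter group counted, and its values are a description. On both of these BIRC3 probe sets brain-dead animals 2 and 5 were the highest pair and animals 1 and 4 the lowest pair. The third (MmugDNA.26265.1.S1_at) did not follow them, with 315, 502, 441, 436 and 225 in controls and 716, 561, 239, 439 and 576 in brain-dead animals. Its change was 0.37 with a 95% interval from -0.32 to 1.05, below the intervals of the other pair (2.19 to 3.63 and 2.40 to 3.89). Both rises passed under all 23 alternatives, with limma's Benjamini-Hochberg adjusted p at most 0.00714.

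TNFAIP3 encodes A20, which edits and removes ubiquitin chains on signalling proteins and so shuts down the IkB kinase. Of its 5 probe sets 4 were above the median on every array, 2 of these with changes above 1 and 2 with changes below 0. The probe set that passed (MmuSTS.4659.1.S1_at) had control signals of 1002, 1253, 1969, 729 and 685 and brain-dead signals of 2017, 2615, 3776, 1973 and 4744. Every brain-dead animal lay above control animal 3, the highest control, although animal 4 did so by a narrow margin. The rise was 1.45 ± 0.33 (SE), or 2.73-fold (limma, Benjamini-Hochberg adjusted p = 0.0255). The call was lost when control animal 1 or 5 or brain-dead animal 3 or 5 was left out (adjusted p of limma 0.0543, 0.0512, 0.0578 and 0.0641, between 0.0170 and 0.0725 in all 23 alternatives).

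Of the other TNFAIP3 probe sets, MmugDNA.40138.1.S1_at had 1761, 4639, 6527, 2131 and 1425 in controls and 3562, 9742, 11034, 4985 and 9523 in brain-dead animals. Control animals 2 and 3 reached the range of brain-dead animals 1 and 4, and the change of 1.36 ± 0.44 missed the threshold (SE, limma, Benjamini-Hochberg adjusted p = 0.0839). It passed without control animal 3, the highest control (adjusted p of limma 0.0495, between 0.0203 and 0.198 in all 23 alternatives). The dimmest TNFAIP3 probe set was above the array median in all 5 brain-dead animals and in 1 control, so that it met the filter only through the group in which it was brighter, and its values are a description. It had 103 to 251 in controls and 208 to 424 in brain-dead animals, with a change of 1.06 ± 0.32 (SE). The remaining pair behaved otherwise. MmugDNA.15654.1.S1_at, the brightest of TNFAIP3, at 3706 to 7000 in controls and 4252 to 5902 in brain-dead animals, had a change of -0.17 with a 95% interval from -0.64 to 0.31. MmugDNA.15656.1.S1_at, at 4541 to 6647 in controls and 2770 to 4935 in brain-dead animals, had one of -0.51 with an interval from -0.96 to -0.06 (limma, Benjamini-Hochberg adjusted p = 0.157). The annotation used here does not place these probe sets on the transcript.

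TNIP1 encodes ABIN-1, a ubiquitin-binding partner of A20. Its single probe set had control signals of 6452, 4600, 3582, 2104 and 2082 and brain-dead signals of 2454, 4398, 2644, 2803 and 4179. The brain-dead animals lay inside the control range, which was wide. The change was -0.10 with a 95% interval from -0.80 to 0.61 (limma, Benjamini-Hochberg adjusted p = 0.894).

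NFKBIA encodes IkB alpha, the IkB protein that is degraded and made anew with each round of signalling. Its single probe set had 249, 144, 266, 216 and 149 in controls and 423, 276, 198, 233 and 290 in brain-dead animals. It lay near the array medians, above them on 7 of 10 arrays. Brain-dead animals 1, 2 and 5 lay above the highest control and animals 3 and 4 within the control range. The change was 0.47 ± 0.30 with a 95% interval from -0.18 to 1.11 (SE, limma, Benjamini-Hochberg adjusted p = 0.371), so neither no change nor a doubling lay outside it. NFKBIE encodes IkB epsilon, a slower-acting relative. Its controls had 564, 649, 475, 475 and 483 and the brain-dead animals 1212, 1413, 586, 575 and 722. Brain-dead animals 1 and 2 stood apart from the other 3, of which animals 3 and 4 lay within the control range. The change was 0.68 ± 0.27 (SE, limma, Benjamini-Hochberg adjusted p = 0.156), and it passed under 1 alternative, with sex and age in the model on 9 animals (adjusted p of limma 0.0492, the lowest of its alternatives, the highest being 0.310).

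**Figure D3:**
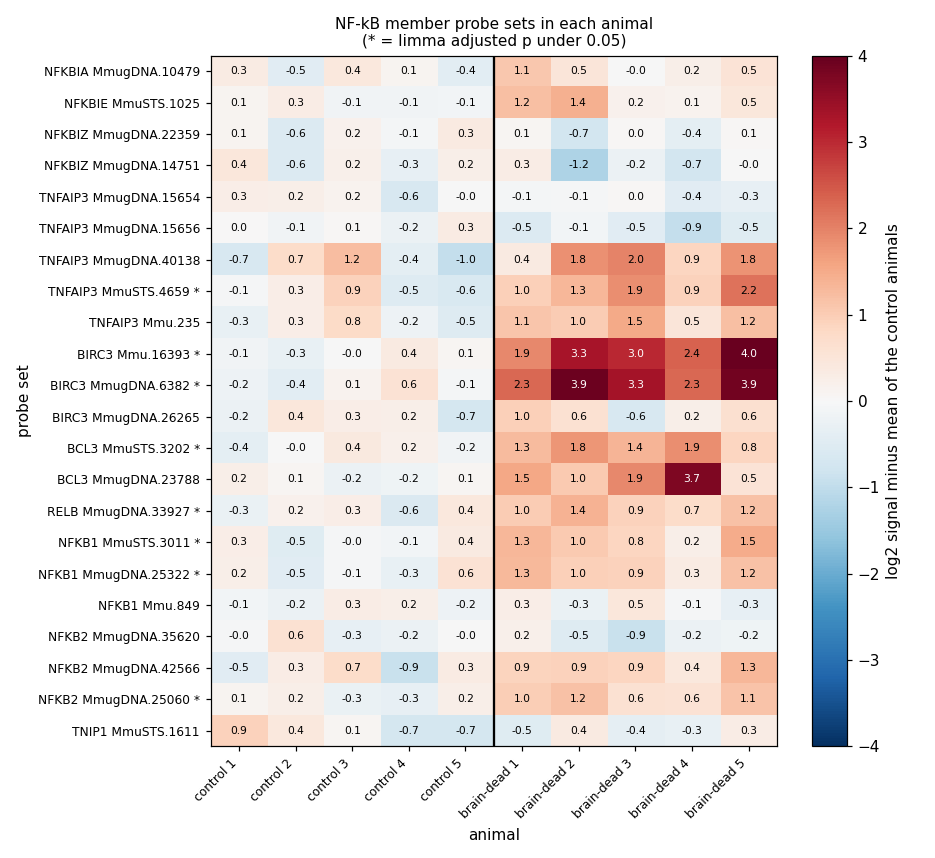
Log2 signal of each probe set (rows) in each animal (columns), less the mean of the 5 control animals; red is higher, blue lower, and an asterisk marks an adjusted p under 0.05. The rows of BIRC3 reach 4.0 in brain-dead animal 5, while the rows of NFKBIZ and 2 TNFAIP3 probe sets stay near or below 0. The TNIP1 row is highest in control animal 1.

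The size of the rise differed between brain-dead animals. Over the 8 probe sets that rose, the mean log2 signal above the control mean was 1.38, 1.85, 1.61, 1.17 and 1.98 in brain-dead animals 1 to 5. Brain-dead animal 4 was the lowest of its group on 5 of the 8, including RELB, NFKB1 and NFKB2, but the highest on BCL3. Brain-dead animals 2 and 5 were the highest on 3 each. The control animals lay between -0.13 and 0.16 on the same measure, which was set by the choice of these 8 and is a description.

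**Figure D4:**
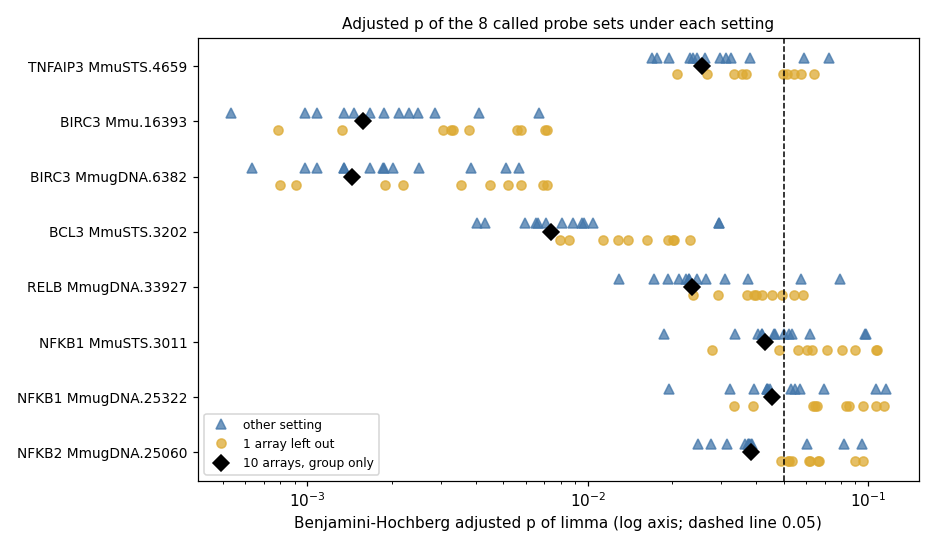
Benjamini-Hochberg adjusted p from limma of the 8 probe sets that rose, with all 10 arrays (diamonds), with 1 array left out (circles) and under the other settings (triangles), on a log axis with 0.05 dashed. The points of both BIRC3 probe sets and of BCL3 stay left of the line, and those of NFKB1 and NFKB2 lie on both sides of it.

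Genes that act upstream were counted by their brightest probe set. Of 25 receptors and adaptors 17 were measured, 1 rose (5.88%, beside 2.9% of all genes) and 0 fell (beside 3.87%), with a median change of 0.25 against -0.007 over all 9835 genes. The one that rose was IRAK2, a kinase of the IL-1 and Toll-like receptor pathway (1.07 ± 0.27, SE, limma, Benjamini-Hochberg adjusted p = 0.0359). The call was lost when control animal 1, 2 or 3, brain-dead animal 1, 2, 3 or 5, or the pair numbered 1 was left out (adjusted p of limma from 0.0555 to 0.126, range over all alternatives 0.0221 to 0.126). IRAK2 was also lost without a filter and with sex or sex and age in the model (adjusted p of limma 0.0571, 0.0508 and 0.0783). TNFRSF1B, a TNF receptor, counted as not called with a change of 0.17 on its brightest probe set and had 0.09 on another, but the remaining one (MmuSTS.4663.1.S1_at) rose by 1.57 ± 0.26 (SE, limma, Benjamini-Hochberg adjusted p = 0.00697). On that probe set the controls had 1136, 1324, 1472, 1731 and 1613 and the brain-dead animals 4551, 2478, 3570, 6095 and 5799, without overlap, and the rise passed under all 23 alternatives. None of 8 measured kinases passed. IKBKB had a change of 0.12 on its brightest probe set and from -0.75 to 0.74 on its others, none of them called. MAP3K14, which encodes NIK, had a change of -0.25. None of 8 measured genes of the ubiquitin machinery passed either, BTRC, the receptor of the ligase that marks IkB for degradation, having a change of -0.19. Of the remaining subunits and IkB proteins 4 were measured and none passed, with REL at 0.14 ± 0.47 (SE) and NFKBIB, a further classical IkB, at 0.56. RELA was not analysed here. In the 3 lists with no call the medians were 0.08, 0.21 and 0.07. Over the receptors, adaptors, kinases and ubiquitin machinery together 1 of 33 genes rose (3.03%), a share near that of all genes.

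Among 12 measured inhibitors outside the 10 genes, 2 rose and 1 fell on the brightest probe set (median change 0.19), beside 2.9% and 3.87% of all genes. ZC3H12A, which encodes the RNase regnase-1 that degrades inflammatory transcripts, rose by 1.54 ± 0.24, from a signal of 600 ± 179 to 1726 ± 417 (SD, n = 5), and passed under all alternatives (limma, Benjamini-Hochberg adjusted p = 0.00530, range 0.00404 to 0.0282). TNIP2, which encodes ABIN-2, rose by 1.13 ± 0.30 (limma, Benjamini-Hochberg adjusted p = 0.0429), a call lost under 12 of 23 alternatives, among them the omission of control animal 1, 2, 3 or 4 or brain-dead animal 1, 4 or 5 (0.0616 to 0.103, range over all 0.0135 to 0.110). PDLIM2, which encodes a ligase that targets nuclear p65, fell by 1.35 ± 0.32 on the log2 scale, from 2050 ± 661 to 808 ± 258 (SD, n = 5). Its adjusted p was 0.0278 (limma, Benjamini-Hochberg), and the call was lost on leaving out control animal 2, 3 or 5 or brain-dead animal 5 (0.0527 to 0.0727, range over all alternatives 0.0108 to 0.0797). SOCS1, a suppressor of cytokine signalling, had a change of 0.36 on the brightest of 5 probe sets, which missed the threshold. Another of its probe sets (MmugDNA.24297.1.S1_s_at) was called, with a change of 3.76 ± 0.80 (SE, limma, Benjamini-Hochberg adjusted p = 0.0192), but it was above the array median in 1 control and 5 brain-dead animals and so met the filter only through the brighter group. The other 3 SOCS1 probe sets had changes of 0.10 to 1.34 and were not called. Of 33 further targets of NF-kB 25 were measured, of which 8 rose, 1 fell and 16 did not pass (median change 0.52). Over all genes 2.9% rose and 3.87% fell. CCL20, a chemokine that draws dendritic cells and lymphocytes, rose by 2.95 ± 0.70, from 473 ± 264 to 5783 ± 6363 (SD, n = 5). The next largest changes were those of ICAM1, an adhesion molecule for leukocytes (2.46 ± 0.36), the cytokine IL6 (2.36 ± 0.53, above the array median in 2 controls and 5 brain-dead animals) and SOD2, a mitochondrial superoxide dismutase (2.36 ± 0.33). The ICAM1 signal was 197 ± 81 in controls, near the array medians, and 1105 ± 577 in brain-dead animals (SD, n = 5). At that control mean not every control can have lain above its array median (184 to 227 in controls). A second SOD2 probe set had a change of -0.03 and was not called. ICAM1 and IL6, both counted among the 8 that rose, met the filter only with the brighter group counted, so their values are a description. The dimmer IL6 probe set was likewise above the array median in 2 controls and 5 brain-dead animals. Its change of 1.58 missed the threshold (limma, Benjamini-Hochberg adjusted p = 0.0594). ICAM1 and the brighter SOD2 probe set passed in every alternative that tested them, whereas IL6 was lost without control animal 1 or 2 or brain-dead animal 3 or 5 (adjusted p of limma 0.0527 to 0.0590, lowest and highest of all its alternatives 0.0161 and 0.0590). The cytokine IL1B and the chemokine CCL2 rose by 2.25 ± 0.39 and 2.33 ± 0.50 (SE, limma, Benjamini-Hochberg adjusted p = 0.00801 and 0.0194). Both passed under all 23 alternatives. IRF1 and TAP1, which act in the interferon response and in peptide transport for antigen presentation, rose by 1.20 ± 0.28 and 1.42 ± 0.31. The calls of CCL20 and IRF1 ended when some single animals were left out: control animal 1, 2 or 3 or brain-dead animal 3, 4 or 5 for CCL20 (limma, Benjamini-Hochberg adjusted p from 0.0563 to 0.0718, 0.0283 with all animals and 0.00346 to 0.0718 over all alternatives), and control animal 1, 2 or 5 or brain-dead animal 5 for IRF1 (0.0528 to 0.0597, 0.0279 and 0.00725 to 0.0829 in the same order). The 1 target that fell was VCAM1, an endothelial adhesion molecule for leukocytes, from 15672 ± 2689 to 8924 ± 2219 (SD, n = 5), without overlap. Its fall of 0.83 ± 0.21 on the log2 scale (SE, limma, Benjamini-Hochberg adjusted p = 0.0374) was lost under 11 of 23 alternatives, among them quantile normalization, median centring and the omission of control animal 1, 2 or 3 or brain-dead animal 3, 4 or 5 (adjusted p of limma over all alternatives 0.0134 to 0.0916). Several targets had changes near or below 0 that did not pass, among them GADD45B (-0.17), TRAF1 (-0.10) and CD83 (-0.05).

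**Figure D5:**
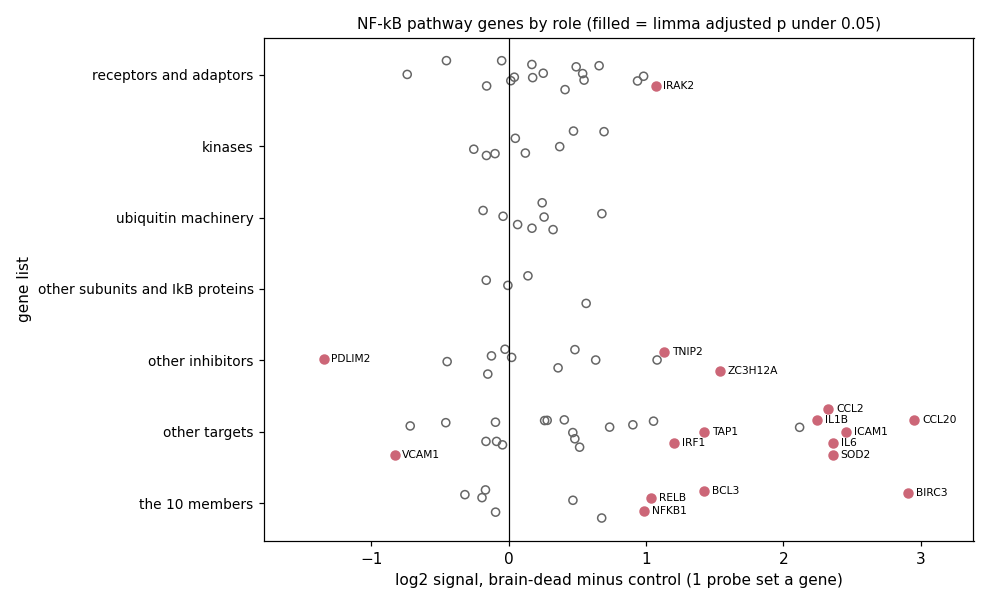
Change in mean log2 signal, brain-dead minus control, of genes on 6 pathway lists and of the 10 genes, 1 probe set a gene; filled points have an adjusted p under 0.05 in limma and are named, and the vertical spread within a list has no meaning. Kinases, ubiquitin machinery and other subunits hold no filled point, and the targets hold 9.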

How the data were processed

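Per the submitters' processing notes MAS5 was used, version not stated there. The authors deposited a linear intensity for every probe set, scaled so that each array's 2% trimmed mean was 1000. Names came from the 2016 platform annotation. The log2 of the signal was analysed, with no pseudocount. Control probe sets (99) were left out, and a probe set was tested when it lay above the array median on at least 5 of 10 arrays. Groups were compared with limma 3.58.1 in R 4.3.3 (lmFit, eBayes with trend, group alone), p-values adjusted by Benjamini-Hochberg across the 26653 probe sets tested, and a threshold of 0.05. The fit was tested on simulated data. Single probe sets were also given an exact permutation test (two-sided, 22 computed, unadjusted). Where a gene had more than 1 tested probe set, its brightest stood for it. Named were all 10 genes, and of the pathway lists up to 4 genes past the threshold with the largest change, besides RELA and REL. GADD45B, TRAF1, CD83, IKBKB, MAP3K14, BTRC, NFKBIB, IL1B, CCL2, IRF1, TAP1, VCAM1, TNFRSF1B and SOCS1 were chosen after their values were seen. The genes, lists, tests and alternatives were chosen with earlier results of these data known. Alternatives are in the closing section; those for the pathway genes were added after seeing the data. The number of arrays limits precision. No sequences were printed. Plots were made with matplotlib 3.10.9.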

Additional observations from a re-analysis of the deposited data

How the results depend on the processing

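No probe set that rose changed direction under any of its alternatives, and 3 of the 8 (both of BIRC3 and the brighter of BCL3) passed in each of 23. The dimmer of these BIRC3 probe sets met the filter only with the brighter group counted, so its values are a description. The count of 8 became 5 without a filter, 4 with sex and age in the model, 3 without both animals numbered 1, 3 at an adjusted p under 0.01, 5 at a change of at least 2-fold, and 3 to 7 when 1 array was left out. The count of all probe sets, 1627, became 1056 without a filter, 1029 with sex and age, 645 without both animals numbered 1, 255 at an adjusted p under 0.01, and 658 to 2293 when 1 array was left out. The gene count of 4 became 2 to 4 when 1 array was left out and 3 with the mean over the probe sets of a gene, NFKB1 then having a change of 0.65 (limma, Benjamini-Hochberg adjusted p = 0.0649). With the replicate number as a block 11 of the 21 probe sets and 3013 of all passed. The 3 gained were MmugDNA.42566.1.S1_at of NFKB2 (limma, Benjamini-Hochberg adjusted p = 0.0426), MmugDNA.40138.1.S1_at of TNFAIP3 (0.0203) and the dimmest of TNFAIP3. That dimmest probe set met the filter only through the brighter group, so its values remain a description. Same-numbered animals had correlated deviations of 0.38, 0.064, 0.13, 0.089 and 0.13, and not every animal correlated best with its own number, so the numbers were not taken to pair animals. Signals near the array medians (NFKBIA and the dimmest of NFKB1 and TNFAIP3) and below them (the dimmer of BCL3) limit what can be said of those probe sets. Among the called probe sets, MmugDNA.6382.1.S1_at of BIRC3 and MmugDNA.25060.1.S1_at of NFKB2 lay near the medians in controls, at 161 to 326 and 217 to 324.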

Other observations

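The interaction of group with sex passed for 0 of 26653 probe sets (limma, Benjamini-Hochberg), while 3.81% had an unadjusted p under 0.05. Among the 21 tested probe sets of the NF-kB genes 1 had an unadjusted p under 0.05. This was MmuSTS.4659.1.S1_at of TNFAIP3, with a change of 0.76 in females and 2.21 in males, which did not hold after adjustment over all probe sets (limma, Benjamini-Hochberg adjusted p = 1.00). NFKBIE had a change of 1.23 in females and 0.38 in males, its pair of high brain-dead animals being the 2 females (limma, Benjamini-Hochberg adjusted p = 1.00 for the interaction). TNIP1 had changes of -0.53 in females and 0.59 in males (limma, Benjamini-Hochberg adjusted p = 1.00 for the interaction).

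Likeness of animal-by-animal profiles was measured as the mean absolute difference, over 10 arrays, between log2 signals each less its control mean. It is given as a description. The genes closest to NFKBIA were C1H1orf56, TBK1, TTC27, N4BP1 and HSPBAP1, at 0.17 to 0.19, where the median over all other genes was 0.57. TBK1, a kinase related to the IkB kinases, and N4BP1, an inhibitor of NF-kB signalling, are on the pathway lists, and like NFKBIA neither passed the test between groups (changes of 0.47 and 0.48). Another N4BP1 probe set had a change of -0.29. The genes closest to the mean profile of the 10 were ADGRE2, PRMT6, DNAAF5, PYGO2 and CCAR1, at 0.12 to 0.14, where the median was 0.54.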
